A study of Mus musculus with 19 samples.

Results

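Of the 1136 miRNAs with probes on the array, 1079 of them mouse miRNAs, 6 belong to the 3 miRNA genes best known from blood vessels: mmu-miR-126-3p and mmu-miR-126-5p, mmu-miR-143-3p and mmu-miR-143-5p, and mmu-miR-145a-5p and mmu-miR-145a-3p. They were chosen by name, with earlier results of these data known. Detection and level separated them into 4 that were measured on all 19 arrays (miR-126-3p, miR-126-5p, miR-143-3p and miR-145a-5p) and 2 that were at or below background on nearly every array (miR-143-5p and miR-145a-3p). No cells were sorted, so the arrays do not show which cells held these miRNAs, and in whole tissue fewer cells of a type and less RNA per cell cannot be told apart.

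A miRNA is cut from a hairpin RNA, and either arm of the hairpin (5p or 3p) can be loaded into a silencing complex that pairs with target mRNAs mainly through the seed, the stretch near the 5′ end of the miRNA. miR-126 is made by endothelial cells from a hairpin within Egfl7, a gene for a secreted endothelial protein; its 3p arm strengthens the response to VEGF by repressing the signalling inhibitors Spred1 and Pik3r2, and its 5p arm represses Dlk1 in endothelium. miR-143 and miR-145 are transcribed together and are typical of vascular smooth muscle, where miR-145 represses Klf4 and Klf5, and miR-143 represses Elk1, regulators of the switch between the contractile and the growing state. Soleus is a slow, oxidative hindlimb muscle with many capillaries per fibre, the extensor digitorum longus (EDL) is a fast, glycolytic one, and the nucleus accumbens is a reward region of the forebrain.

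The study asked whether miRNA expression differs between inherently high-active C57L/J and inherently low-active C3H/HeJ inbred mice in muscle and in brain. The 19 arrays came from 8 male mice, 9 weeks old, untreated and housed alone for 1 week with a running wheel that was locked. Soleus was measured in 4 high-active and 2 low-active mice, EDL in 2 high-active and 4 low-active mice, and nucleus accumbens in 4 high-active and 3 low-active mice. The titles number the mice (223, 224, 225 and 227 high-active; 194 to 197 low-active), so the same animal appears in more than 1 tissue, while the design text of the series mentions no biological replicates, and p-values measure the spread between these arrays. Each strain is 1 inbred line, so activity and every other difference between the strains cannot be told apart.

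The sequence is shown for miR-126-3p, the member with the clearest difference between the muscles. Of the 6 members, 1 had a mature entry in the RefSeq table (GRCm38.p6), where it is named mmu-miR-126a-3p. It lies at chr2:26591402-26591423 on the plus strand, has 22 bases, and is written 5′ to 3′ with its seed (bases 2 to 8) in capitals.
miR-126-3p: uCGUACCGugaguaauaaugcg
This seed was held by 1 of the 1738 mature entries in the table, so no other listed mouse miRNA shares it. The hairpin, Mir126a, lies at chr2:26591357-26591429 on the plus strand and is shown whole, 73 bases with the mature miR-126-3p in capitals, to place that arm toward its 3′ end.
Mir126a: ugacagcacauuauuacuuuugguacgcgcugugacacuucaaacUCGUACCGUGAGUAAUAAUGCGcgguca
Mir126a lies within Egfl7 (chromosome 2, 26581083 to 26592682), and a second annotated hairpin, Mir126b, overlaps it (26591363 to 26591420).

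Each array had 45440 spots for 2889 probes. The level of a miRNA is the log2 of the background-subtracted intensity of its brightest probe after each array was scaled to a common 75th percentile, taken over 328 probes that all 19 arrays detected, with low values raised to a floor of 22.1 intensity units (4.46 on the log2 scale). The 75th percentile before scaling was 856 to 1786 on soleus arrays, 658 to 1867 on EDL arrays and 1029 to 2209 on nucleus accumbens arrays, and 266 to 346, 242 to 338 and 349 to 392 miRNAs were detected in the 3 tissues. Tissue labels were checked against miRNAs typical of each tissue. Summed over the 7 skeletal muscle miRNAs on the array, such as miR-1a and miR-133a, scaled intensity was 452740 to 606379 in soleus, 504644 to 813115 in EDL and 399 to 2180 in nucleus accumbens. Over the 8 brain miRNAs it was 1781 to 2865, 938 to 1955 and 104760 to 144518. The arrays lay on 3 slides of 7, 7 and 5 arrays, and the 7 arrays of slide 3 stood apart in miR-126-5p, so results for that member are given with and without them.

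The passenger arms miR-143-5p and miR-145a-3p gave no usable level. An array counted as detecting a miRNA when over 50% of the spots of a probe were well above background. miR-143-5p met this on 1 array, EDL of high-active mouse 225, with 60% of spots and an intensity of 20.1. It had 50% of spots in EDL of low-active mouse 197, 30% in soleus of low-active mouse 194 and 5.56% in EDL of low-active mouse 194. miR-145a-3p met it on none, with 44.4% of spots in EDL of high-active mouse 225 and 10% in EDL of low-active mouse 197 as its highest shares. Both were at the floor on all 19 arrays and were not tested. The 4 measured members each had 2 probes of 20 spots, both detected on 19 of 19 arrays, with median coefficients of variation among spots of 4.07 to 8.82% and 0 saturated spots. Before scaling their brightest probes read 2141 to 14049 for miR-126-3p, 139 to 1108 for miR-126-5p, 133 to 1982 for miR-143-3p and 66.8 to 861 for miR-145a-5p.

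All 4 measured members were higher in both muscles than in the nucleus accumbens. miR-126-3p, the endothelial guide arm, was 3.76-fold higher in soleus and 2.86-fold higher in EDL. The smooth muscle miRNAs were higher too, miR-143-3p by 4.64-fold in soleus and 4.62-fold in EDL, and miR-145a-5p by 4.13-fold and 4.91-fold. miR-126-5p was 2.74-fold higher in soleus and 2.21-fold higher in EDL. Over all 484 miRNAs tested the median difference was -0.20 on the log2 scale in both comparisons, 31.6% were called higher in soleus and 47.3% lower, and 28.7% were called higher in EDL and 47.1% lower.

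For miR-126-3p the soleus of the high-active mice 223, 224, 225 and 227 gave log2 levels of 13.44, 13.32, 13.68 and 13.46, against 13.39 and 13.45 in the low-active mice 194 and 195. In EDL it was 13.15 and 13.21 in the high-active mice 225 and 227, against 13.10, 12.72, 13.00 and 12.87 in the low-active mice 194 to 197. The nucleus accumbens gave 11.75, 11.37, 11.44 and 11.62 in the high-active mice 223, 224, 225 and 227, against 11.53, 11.53 and 11.50 in the low-active mice 194, 195 and 197. The 3 tissues formed 3 separate ranges, with every soleus array above every EDL array and every EDL array above every nucleus accumbens array. This separation holds for scaled signal. Before scaling the ranges overlapped, at 6679 to 14049 in soleus, 3121 to 9917 in EDL and 2141 to 5374 in nucleus accumbens. Tissue means were 13.45 ± 0.12 in soleus (SD, n = 6), 13.01 ± 0.18 in EDL (SD, n = 6) and 11.54 ± 0.12 in nucleus accumbens (SD, n = 7). By limma over all 19 arrays, with Benjamini-Hochberg adjustment over the 484 miRNAs, soleus exceeded nucleus accumbens by 1.91 (SE 0.08, 95% confidence interval 1.74 to 2.09, adjusted p = 2.72e-12) and EDL exceeded it by 1.52 (SE 0.08, adjusted p = 5.86e-11).

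miR-143-3p had log2 levels of 10.37, 10.23, 10.25 and 10.16 in high-active soleus (mice 223, 224, 225 and 227), against 10.63 and 10.36 in low-active soleus (194 and 195). EDL levels were 10.63 and 10.41 in high-active mice 225 and 227, against 10.53, 9.67, 10.14 and 10.50 in low-active mice 194 to 197. In nucleus accumbens they were 8.80, 8.07, 7.86 and 8.05 in high-active mice 223, 224, 225 and 227, against 8.17, 7.52 and 8.67 in low-active mice 194, 195 and 197. The 2 muscles overlapped almost completely, and the lowest muscle array, EDL of low-active mouse 195, still lay above the highest nucleus accumbens array. Means were 10.33 ± 0.17 in soleus, 10.31 ± 0.36 in EDL and 8.16 ± 0.45 in nucleus accumbens (SD, n = 6, 6 and 7). Soleus exceeded nucleus accumbens by 2.21 (SE 0.20, limma adjusted p = 4.99e-08) and EDL exceeded it by 2.21 (SE 0.20, adjusted p = 5.47e-08).

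miR-145a-5p, made from the same primary transcript as miR-143-3p, had 9.13, 9.12, 9.39 and 8.89 in high-active soleus (mice 223, 224, 225 and 227), against 9.09 and 8.73 in low-active soleus (194 and 195). In EDL it had 9.62 and 9.25 in high-active mice 225 and 227, against 9.34, 8.43, 9.35 and 9.31 in low-active mice 194 to 197. In nucleus accumbens it had 7.12, 6.86, 6.79 and 7.02 in high-active mice 223, 224, 225 and 227, against 6.95, 6.53 and 7.54 in low-active mice 194, 195 and 197. Muscle and nucleus accumbens did not overlap, and 1 EDL array, that of mouse 195, lay well below the other EDL arrays. Tissue means were 9.06 ± 0.22 in soleus, 9.22 ± 0.41 in EDL and 6.97 ± 0.31 in nucleus accumbens (SD, n = 6, 6 and 7). The difference to nucleus accumbens was 2.04 for soleus (SE 0.19, limma adjusted p = 4.80e-08) and 2.29 for EDL (SE 0.19, adjusted p = 1.18e-08).

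miR-126-5p, the other arm of the miR-126 hairpin, varied most between arrays of 1 tissue. Soleus levels were 10.27, 9.28, 9.62 and 9.64 in high-active mice 223, 224, 225 and 227, against 9.33 and 9.19 in low-active mice 194 and 195. EDL levels were 9.89 and 8.91 in high-active mice 225 and 227, against 9.16, 8.46, 8.46 and 9.72 in low-active mice 194 to 197. Nucleus accumbens levels were 8.77, 8.40, 7.55 and 8.37 in high-active mice 223, 224, 225 and 227, against 7.50, 7.59 and 8.28 in low-active mice 194, 195 and 197. Every soleus array was above every nucleus accumbens array, whereas EDL and nucleus accumbens overlapped. The difference to nucleus accumbens was 1.45 for soleus (SE 0.27, limma adjusted p = 1.73e-04) and 1.14 for EDL (SE 0.27, adjusted p = 0.00142), and without the arrays of slide 3 it was 1.83 (adjusted p = 4.81e-05) and 1.28 (adjusted p = 7.65e-04). The EDL call for this member was lost with no scaling (0.79, adjusted p = 0.103) and with scaling to spike-in probes (0.77, adjusted p = 0.0665).

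**Figure D1:**
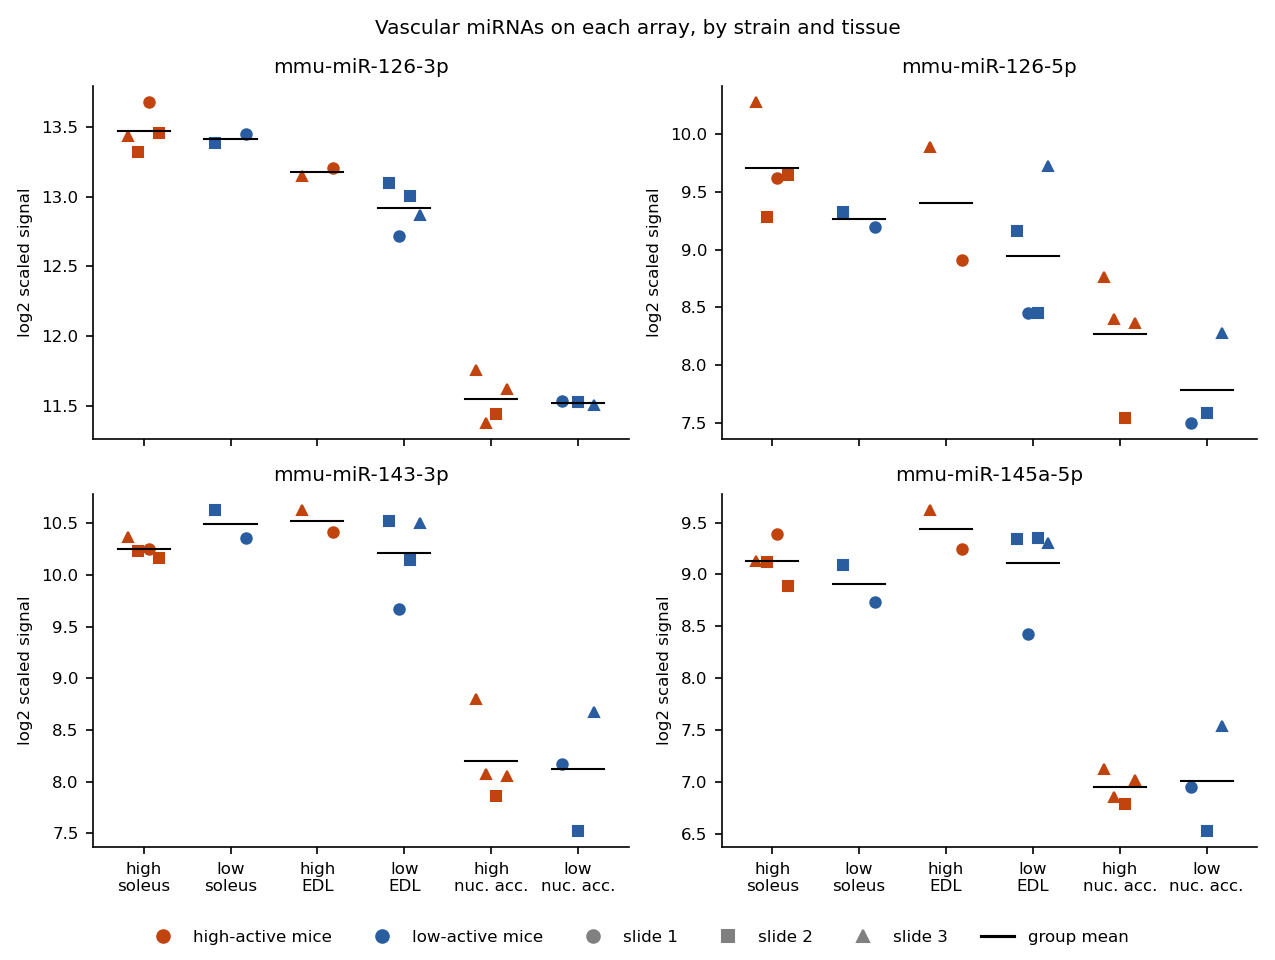
Log2 scaled signal (vertical axis) of miR-126-3p, miR-126-5p, miR-143-3p and miR-145a-5p on each of the 19 arrays, by strain and tissue (horizontal axis; nuc. acc. is nucleus accumbens), with colour for strain, marker shape for slide and a bar at each group's mean. For miR-126-3p the 3 tissues lie in separate ranges (means 13.45, 13.01 and 11.54), while for miR-143-3p soleus and EDL share 1 range well above nucleus accumbens (10.33, 10.31 and 8.16).

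Within the high-active mice soleus exceeded nucleus accumbens by 1.93 for miR-126-3p, 1.43 for miR-126-5p, 2.06 for miR-143-3p and 2.18 for miR-145a-5p, and within the low-active mice by 1.90, 1.47, 2.37 and 1.91. EDL exceeded nucleus accumbens by 1.63, 1.13, 2.32 and 2.49 within high-active mice and by 1.40, 1.16, 2.09 and 2.10 within low-active mice, in the same order of members. All 16 of these differences passed the test in the limma fit, in which many of all 484 miRNAs passed too. For soleus 144 were called higher and 205 lower within high-active mice, and 128 and 206 within low-active mice. For EDL the counts were 109 higher and 191 lower within high-active mice, and 133 and 218 within low-active mice. In scaled signal, arrays did not overlap between soleus and nucleus accumbens for 4 of the 4 members, against 23.3% of all miRNAs tested. Between EDL and nucleus accumbens this held for 3 of 4, against 20.7%. Other scalings moved the median of all miRNAs by up to 0.33 in these comparisons, and relative to that median soleus exceeded nucleus accumbens by 1.62 to 2.74 and EDL exceeded it by 1.16 to 2.90 over the 4 members and 5 scalings. As a measure of blood in the samples, the 3 red cell miRNAs summed to 4270 to 7243 in soleus, 1559 to 4102 in EDL and 1878 to 13115 in nucleus accumbens, and the nucleus accumbens range overlapped that of each muscle. The leukocyte list summed to 1361 to 2005, 1164 to 1712 and 888 to 1177, and the epithelial list to 28.6 to 159, 14.7 to 273 and 57.2 to 20910. The part of these other cells in the members' levels was not tested.

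Between the 2 muscles, miR-126-3p was higher in soleus, by 1.32-fold or 0.40 on the log2 scale (SE 0.09, 95% confidence interval 0.21 to 0.58, limma adjusted p = 0.0042). It was the only 1 of the 4 members called, where 7.02% of all miRNAs were called higher in soleus and 9.09% lower. In scaled signal its lowest soleus array (13.32) lay above its highest EDL array (13.21), a separation that 3.51% of all miRNAs tested showed. Within low-active mice the difference was 0.50 (95% confidence interval 0.23 to 0.76, adjusted p = 0.024), with 3.51% of all miRNAs called higher, and within high-active mice it was 0.30 (0.03 to 0.56, adjusted p = 0.174). The summed red cell miRNAs, of which 1 or 2 of 3 were detected on each muscle array, were also higher in soleus (4270 to 7243) than in EDL (1559 to 4102) with no overlap, and their part in the difference was not tested. The miR-126-3p difference stayed positive in all 38 settings run, at 0.23 to 0.73, but missed the threshold in 6 of them. These were 3 of the scalings (percentile over all probes 0.29, no scaling 0.63, spike-ins 0.73), the software's signal per miRNA (0.33), the high-active mice alone (0.30) and the arrays without slide 3 (0.34). Leaving out EDL of low-active mouse 195, the lowest EDL array, reduced the difference to 0.25, and the call held with each array left out in turn (adjusted p = 0.0024 to 0.028).

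No other member passed that test. miR-126-5p was 0.31 higher in soleus (95% confidence interval -0.32 to 0.93, limma adjusted p = 0.69), but with slide as a block its difference was 0.52 (adjusted p = 0.0161), and without slide 3 it was 0.55 (adjusted p = 0.103). miR-143-3p differed by 0.0085 (-0.45 to 0.47, adjusted p = 1.00), so these arrays leave room for a difference of about 0.47 in either direction. miR-145a-5p differed by -0.25 (-0.67 to 0.17, adjusted p = 0.56), and that sign turned with spike-in scaling (0.08).

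**Figure D2:**
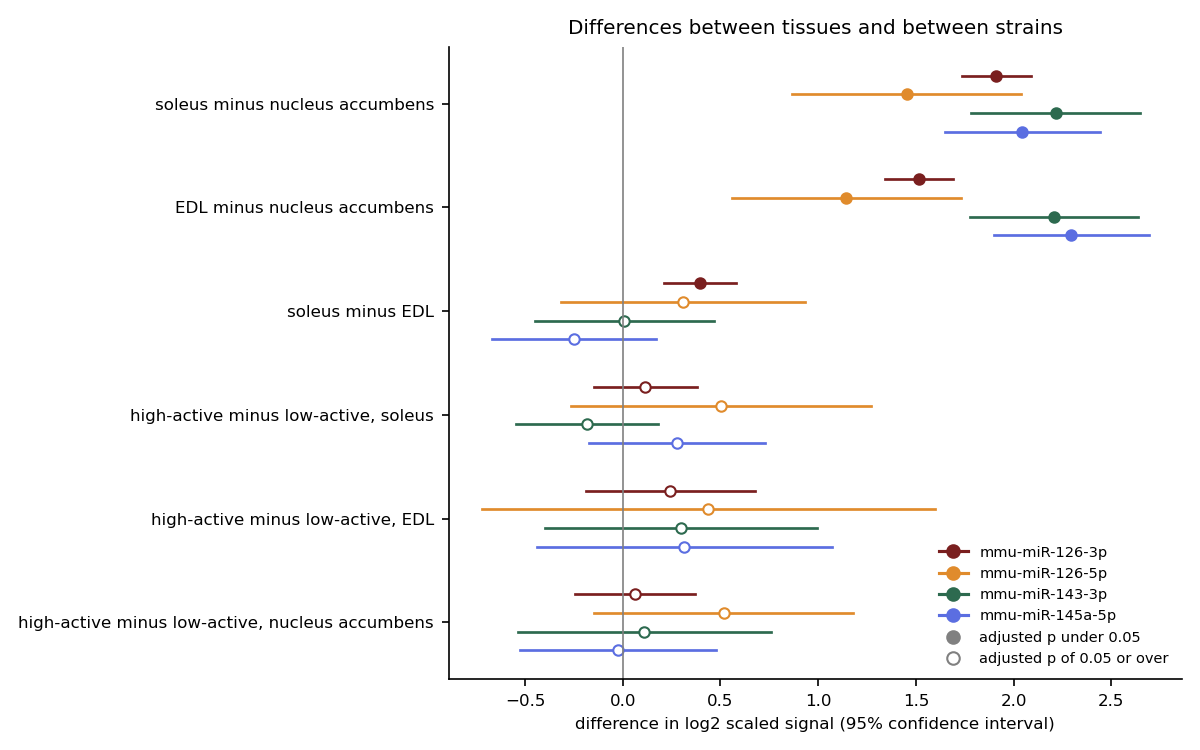
Log2 differences (horizontal axis) with 95% confidence intervals for the 4 measured members, between tissues and between strains, where filled points have an adjusted p under 0.05 by limma. Every soleus or EDL minus nucleus accumbens difference lies above 0, miR-126-3p alone has a filled point for soleus minus EDL (0.40), and no strain difference is filled.

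Because 2 miRNAs read on 1 array share its scaling, their log2 difference is free of that choice, though its size also holds the brightness of the 2 probes and only its change between tissues can be read. These differences are descriptions, with no test. On each soleus array miR-126-3p exceeded miR-145a-5p by 4.21 to 4.71 and on each EDL array by 3.53 to 4.29, with means of 4.40 ± 0.20 and 3.79 ± 0.29 (SD, n = 6 each). Only EDL of low-active mouse 195, at 4.29, reached into the soleus range. On nucleus accumbens arrays the same difference was 3.96 to 5.00 with a mean of 4.56 ± 0.31 (SD, n = 7). The difference of miR-126-3p to miR-143-3p was 3.12 ± 0.23 in soleus, 2.69 ± 0.25 in EDL and 3.37 ± 0.40 in nucleus accumbens. Averaged over the strains, soleus exceeded EDL by 0.39 for miR-126-3p minus miR-143-3p and by 0.65 for miR-126-3p minus miR-145a-5p, while EDL minus nucleus accumbens was -0.69 and -0.78.

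The 2 smooth muscle miRNAs were also compared with each other on the same array. miR-143-3p minus miR-145a-5p was 1.28 ± 0.28 in soleus (0.86 to 1.63), 1.097 ± 0.17 in EDL (0.79 to 1.24) and 1.19 ± 0.23 in nucleus accumbens (1.00 to 1.68). The ranges of the 3 tissues overlapped, and the strain-balanced differences between tissues were 0.26, 0.17 and -0.09 for soleus minus EDL, soleus minus nucleus accumbens and EDL minus nucleus accumbens. In soleus the pair differed by 1.12 ± 0.19 in high-active mice (0.86 to 1.27, n = 4) and 1.58 ± 0.060 in low-active mice (1.54 to 1.63, n = 2), with no overlap, while the strains overlapped in EDL and nucleus accumbens. This strain difference was not tested. With 4 and 2 arrays such ranges can part by chance, and how many pairs of all miRNAs separate in this way was not counted. In the other pairs compared on the same array the strains overlapped in each tissue, though barely for miR-126-3p minus miR-126-5p in soleus. Neither miR-143-3p nor miR-145a-5p passed the test between strains in soleus. In the gene table Mir143 (chromosome 18, 61649196 to 61649258, GRCm38.p6) and Mir145a (61647825 to 61647894) lie 1301 bases apart, both within the long noncoding RNA gene Carmn (61645878 to 61665538).

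**Figure D3:**
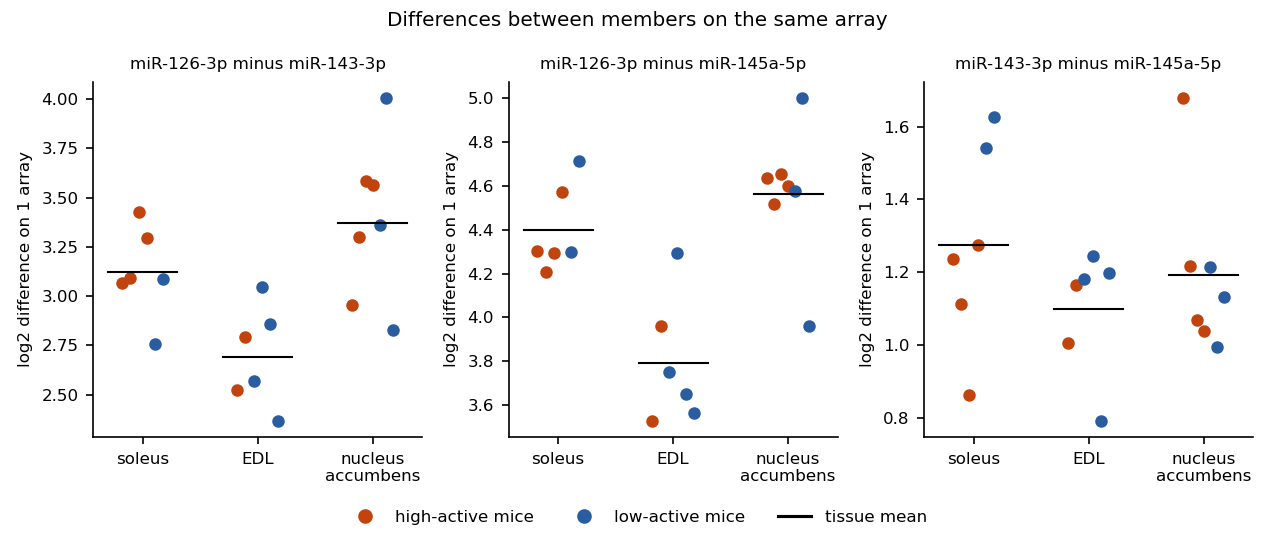
Log2 difference between 2 members on the same array (vertical axis) for 3 pairs, by tissue (horizontal axis), with 1 point per array and a bar at each tissue's mean. miR-126-3p minus miR-145a-5p is lower in EDL (mean 3.79) than in soleus (4.40) and nucleus accumbens (4.56), and miR-143-3p minus miR-145a-5p has overlapping ranges in all 3 (means 1.28, 1.097 and 1.19).

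No member passed the test between the strains in any tissue. Each tissue was scaled and tested alone here, so levels differ slightly from those above. 0 of 4 members passed limma's adjusted test in each tissue, where 1.17% of all miRNAs tested were called in soleus (4 of 342), 0.303% in EDL (1 of 330) and 6.91% in nucleus accumbens (27 of 391). In each tissue 0 of 4 had an unadjusted p under 0.05, beside 58 of 342, 24 of 330 and 77 of 391 over all miRNAs. miR-126-3p averaged 13.44 ± 0.13 in high-active and 13.33 ± 0.07 in low-active soleus (SD, n = 4 and 2), 13.00 ± 0.01 and 12.75 ± 0.10 in EDL (n = 2 and 4), and 11.75 ± 0.17 and 11.69 ± 0.08 in nucleus accumbens (n = 4 and 3). The differences were 0.12 (95% confidence interval -0.15 to 0.38, limma adjusted p = 0.62), 0.24 (-0.19 to 0.67, adjusted p = 0.78) and 0.06 (-0.25 to 0.37, adjusted p = 0.80).

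For miR-143-3p the strain difference was -0.18 in soleus (-0.55 to 0.18, limma adjusted p = 0.56), 0.30 in EDL (-0.40 to 0.99, adjusted p = 0.83) and 0.11 in nucleus accumbens (-0.54 to 0.76, adjusted p = 0.83). It was called in soleus only with no scaling, at -0.90 (adjusted p = 0.0395). For miR-145a-5p it was 0.28 (-0.17 to 0.73, adjusted p = 0.49), 0.31 (-0.44 to 1.07, adjusted p = 0.83) and -0.03 (-0.53 to 0.48, adjusted p = 0.95). The upper bound of these intervals reached 1.07, so the number of arrays limits what could be seen here. Mouse 195 was below mouse 194, of the same strain, in both smooth muscle miRNAs in all 3 tissues. The arrays of these mice differed in signal and lay on different slides in each tissue. Before scaling, EDL of mouse 195 had the lowest 75th percentile of the series (658) and the fewest miRNAs detected (242). Its nucleus accumbens array had the lowest percentile of that tissue (1029), and its soleus array the highest of soleus (1786). Whether the gap belongs to the mouse or to the arrays was not tested.

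miR-126-5p had the widest gaps between strain means, with the high-active mean above the low-active mean in 3 of 3 tissues: 9.67 ± 0.43 and 9.17 ± 0.21 in soleus, 9.22 ± 0.74 and 8.78 ± 0.67 in EDL, and 8.47 ± 0.44 and 7.96 ± 0.42 in nucleus accumbens. Differences of 0.50 (-0.26 to 1.27, limma adjusted p = 0.45), 0.44 (-0.72 to 1.60, adjusted p = 0.83) and 0.52 (-0.15 to 1.18, adjusted p = 0.38) did not pass the test. With slide as a block they were 0.29 (SE 0.21), 0.20 (SE 0.28) and 0.16 (SE 0.16), and without the arrays of slide 3 they were 0.24, 0.21 and 0.10.

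The strain difference itself was also compared between tissues, and no member passed. Soleus against EDL the interactions were -0.20 for miR-126-3p (95% confidence interval -0.57 to 0.17), -0.0071 for miR-126-5p, -0.55 for miR-143-3p (-1.47 to 0.36) and -0.11 for miR-145a-5p, each with an adjusted p of 1.00 by limma, and 0.62% of all miRNAs were called. Soleus against nucleus accumbens they were 0.03, -0.04, -0.32 and 0.28 (adjusted p = 0.96, 1.00, 0.77 and 0.79; 7.64% called), and EDL against nucleus accumbens 0.23, -0.03, 0.23 and 0.39 (adjusted p = 0.55, 1.00, 0.81 and 0.66; 5.58% called).

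miR-126-5p followed the slide on which an array was hybridised. Slide 3 held soleus of high-active mouse 223, EDL of high-active mouse 225 and low-active mouse 197, and nucleus accumbens of high-active mice 223, 224 and 227 and of low-active mouse 197. In a fit of all 19 arrays with slide beside the 6 groups, miR-126-5p was 0.90 higher on slide 3 than on the mean of the other 2 slides (SE 0.12, 95% confidence interval 0.64 to 1.16, limma adjusted p = 2.58e-04), rank 8 of 484 miRNAs by the size of the rise, where 1.86% were called higher and 41 were called lower. In EDL its slide 3 arrays read 9.72 and 9.89, against 8.46 to 9.16 on the other slides. In nucleus accumbens they read 8.28 to 8.77, against 7.50 to 7.59, and in soleus the 1 slide 3 array read 10.27, against 9.19 to 9.64. Slide 3 was therefore above the others in each tissue with no overlap, and slides 2 and 1 differed by 0.09 (limma adjusted p = 0.89). How many of all miRNAs separate by slide in this way was not counted. The contrast sets apart the slide that stood out in this same member, so its p-value is a description and no independent test.

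The opposite arm of the same hairpin showed no such step. miR-126-3p differed by -0.01 on slide 3 (95% confidence interval -0.19 to 0.17). The smooth muscle miRNAs were higher on slide 3 but did not pass the test. miR-143-3p differed by 0.42 (0.06 to 0.78, limma adjusted p = 0.13) and miR-145a-5p by 0.33 (-0.01 to 0.68, adjusted p = 0.20). As a result miR-126-3p minus miR-126-5p on the same array was 3.14 ± 0.12 on slide 3 (2.97 to 3.26), 4.03 on slide 2 (3.82 to 4.55) and 4.18 on slide 1 (4.03 to 4.29), and by tissue it was 3.90 in soleus, 3.91 in EDL and 3.47 in nucleus accumbens. Slide 3 held 4 of the 7 nucleus accumbens arrays, 1 of the 6 soleus arrays and 2 of the 6 EDL arrays. The cause of the slide difference was not tested.

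**Figure D4:**
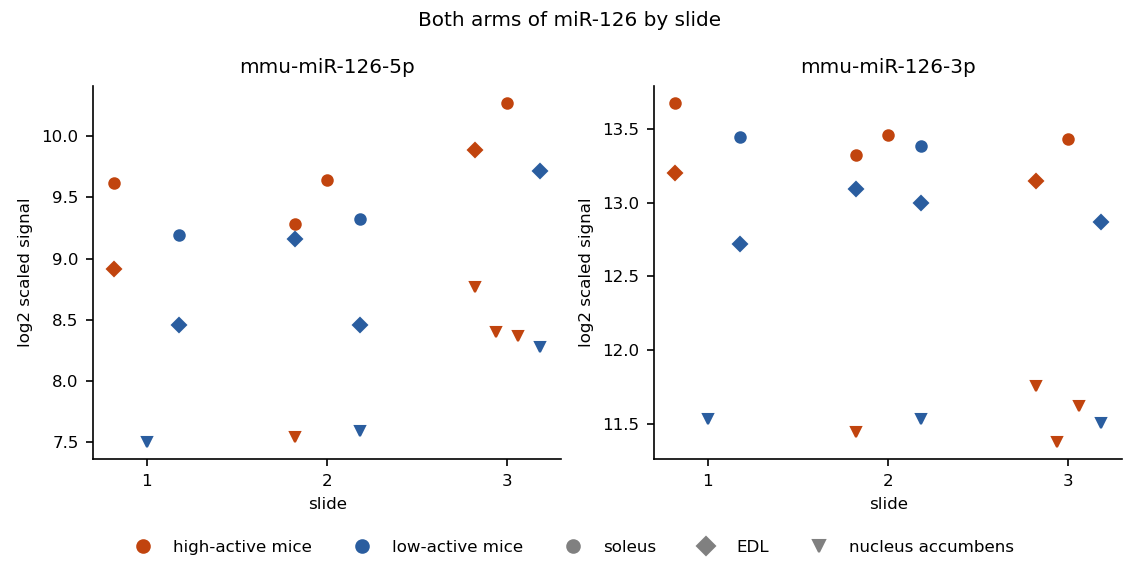
Log2 scaled signal (vertical axis) of miR-126-5p and miR-126-3p by slide (horizontal axis), 1 point per array, with colour for strain and shape for tissue. Within each tissue the slide 3 arrays of miR-126-5p lie above those of slides 1 and 2 (for example 8.28 to 8.77 against 7.50 to 7.59 in nucleus accumbens), while miR-126-3p shows no such step.

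Other miRNAs linked to blood vessels were read from a list of 14 with known parts in angiogenesis, all on the array and tested between tissues. Between soleus and EDL 7.02% of all miRNAs tested were called higher in soleus and 9.09% lower. Of the 14 in the list 6 were called higher and 0 lower, with a median of 0.35 beside 0 over all miRNAs. These 6 were the members of the miR-23, miR-27 and miR-24 clusters, miR-27a-3p (1.09), miR-24-3p (0.85), miR-23a-3p (0.76), miR-27b-3p (0.68) and miR-23b-3p (0.45), and miR-10a-5p (0.37), which lies in a Hox cluster. The first 4 were called under all 5 scalings, miR-23b-3p under 2 and miR-10a-5p under 1, and the list as a whole gave 4 to 7 higher and 0 to 1 lower.

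Against nucleus accumbens the list went both ways. In soleus 9 of 14 were higher and 4 lower (median 1.13, -0.20 over all miRNAs), beside 31.6% and 47.3% of all miRNAs. In EDL 8 were higher and 5 lower (median 0.48), beside 28.7% and 47.1% of all miRNAs. Without scaling the list gave 5 higher and 5 lower in EDL. miR-10b-5p was detected on 0 of 7 nucleus accumbens arrays and was at least 71.2-fold higher in soleus and at least 62.6-fold higher in EDL, a bound that sets the mean of the muscle arrays against the higher, on each nucleus accumbens array, of its lowest detected signal and the floor. miR-10a-5p, detected on 1 of those 7 arrays, was 5.23 higher in soleus and 4.85 higher in EDL on the log2 scale, with its nucleus accumbens mean at the floor (4.46), so that the floor sets the size of these differences. miR-218-5p, encoded in introns of Slit2 and Slit3 and detected on 3 of 6 soleus and 2 of 6 EDL arrays, was lower there, with differences of -7.22 and -7.62 whose size depends on the floor, since its muscle means (4.81 in soleus and 4.51 in EDL) lay close to it. miR-222-3p (-4.90 and -4.87) and miR-221-3p (-3.74 and -3.80), which repress the receptor Kit, were lower as well. The 3 brightest were miR-23a-3p (2.14 higher in soleus and 1.38 in EDL), miR-23b-3p (1.01 and 0.56) and miR-24-3p (1.25 and 0.40).

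A second list held 9 miRNAs linked to mural cells (smooth muscle and pericytes) and fibroblasts, 8 of which had probes that were used. Not all of them are particular to these cells. In soleus, EDL and nucleus accumbens miR-26a-5p averaged 13.84, 14.06 and 14.15, and miR-21a-5p 11.10, 11.11 and 10.63. The list is therefore not a measure of these cells. By limma 0 were called between soleus and EDL, beside 7.02% of all miRNAs called higher in soleus and 9.09% lower. An unadjusted p under 0.05 was seen for 1 of the list, beside 125 of 484 over all miRNAs tested. The median of the list was -0.07, and quantile normalization called 1 lower in soleus. Against nucleus accumbens 6 of 8 were higher and 1 lower in soleus (median 3.14), beside 31.6% and 47.3% of all miRNAs. In EDL 6 were higher and 0 lower (median 3.13), beside 28.7% and 47.1%. The largest changes were those of miR-199b-5p (5.32 in soleus and 5.49 in EDL), miR-199a-3p (5.24 and 5.37) and miR-199a-5p (4.89 and 4.90), together with miR-214-3p, which was detected on 0 of 7 nucleus accumbens arrays and was at least 16.6-fold higher in soleus and at least 16.2-fold higher in EDL. miR-199a and miR-214 come from the noncoding RNA Dnm3os. The 3 brightest were miR-22-3p (2.15 and 2.24), miR-21a-5p (0.55 and 0.53) and miR-26a-5p (-0.30 and -0.05). Between strains 0 of the measured members of either list passed limma's test in any tissue. Over all miRNAs 1.17% were called in soleus, 0.303% in EDL and 6.91% in nucleus accumbens. In that order of tissues 14, 14 and 12 angiogenesis miRNAs were tested (medians 0.01, -0.02 and 0.05), and 8, 8 and 6 mural and fibroblast miRNAs (medians -0.25, 0.07 and 0.03). An unadjusted p under 0.05 was seen for 3, 0 and 3 of the first list and for 2, 0 and 0 of the second, by limma in the same order of tissues, beside 58 of 342, 24 of 330 and 77 of 391 over all miRNAs tested.

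Across the 19 arrays the level patterns followed the tissues, so likeness is given with the correlation of deviations from the 6 group means beside it. Among 289 other miRNAs detected on at least 10 arrays, those most like miR-126-3p were miR-322-5p (r = 0.99, 0.76 in deviations), miR-10a-5p (0.98, 0.67), miR-155-5p (0.98, 0.57), miR-206-3p (0.98, 0.30) and miR-223-3p (0.97, 0.30). Of these miR-155-5p was detected on 0 of the 7 nucleus accumbens arrays, and miR-10a-5p and miR-206-3p on 1 each. The 5 most like miR-143-3p and the 5 most like miR-145a-5p were the same muscle-rich miRNAs. With r to miR-143-3p and then to miR-145a-5p, they were miR-1a-3p (0.97 and 0.98), miR-378b (0.97 and 0.97), miR-133a-3p (0.96 and 0.97), miR-133b-3p (0.96 and 0.97) and miR-378a-3p (0.96 and 0.97). In deviations these 5 miRNAs gave, in the same order, 0.71 and 0.75, 0.68 and 0.71, 0.51 and 0.63, 0.48 and 0.60, and 0.62 and 0.75. Their soleus minus EDL differences were -0.33 for miR-1a-3p, -0.49 for miR-378b, -0.61 for miR-133a-3p, -0.55 for miR-133b-3p and -0.70 for miR-378a-3p, against 0.0085 for miR-143-3p and -0.25 for miR-145a-5p.

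Among the members, deviations from the group means correlated most between the 2 miRNAs of the chromosome 18 cluster (miR-143-3p and miR-145a-5p, r = 0.83 over 19 arrays). miR-126-5p and miR-143-3p gave 0.71, miR-126-5p and miR-145a-5p 0.54, miR-126-3p and miR-145a-5p 0.48, and miR-126-3p and miR-143-3p 0.44. The lowest value, 0.23, was that of the 2 arms of miR-126. The median over all pairs of 293 miRNAs was 0.10. The arrays share slide and scaling, and these values are descriptions with no test.

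The scanner software also writes 1 total signal per miRNA, and for the 2 passenger arms that signal contradicted their own spots. It called miR-143-5p detected on 4 arrays, with 1230 in soleus of low-active mouse 194, 1101 in EDL of high-active mouse 225, and 867 and 1256 in EDL of low-active mice 194 and 197. On the same arrays the brighter probe of miR-143-5p totalled 7.07, 7.40, 5.87 and 7.47, while the total of miR-143-3p was 1223, 1094, 861 and 1249. On all 4 arrays the value written for miR-143-5p equalled the miR-143-3p total plus the brighter probe of miR-143-5p, within a relative tolerance of 2e-05. miR-145a-3p was called on 2 arrays, at 30.0 in EDL of high-active mouse 225 and 23.4 in EDL of low-active mouse 197, each equal to the total of miR-144-3p, a red cell miRNA (26.8 and 20.8), plus its own probe (3.22 and 2.52).

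Software signals far above a miRNA's own probes were common in the series, but a match to another miRNA's total was sought only for the 2 passenger arms. 1532 of the 7125 detected software signals, or 21.5%, were over 2 times the sum of that miRNA's own probes, whereas the 4 measured members had 0 of 76. The submitted series table has a row for miR-143-5p that followed the software signal across arrays (r = 0.99 in soleus and 1.00 in EDL, 6 arrays each). In soleus the software called it detected only in low-active mouse 194, so that r sets this array against undetected ones. In EDL it was called only in high-active mouse 225 and low-active mice 194 and 197. All levels given above were read from the spots of each miRNA's own probes.

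**Figure D5:**
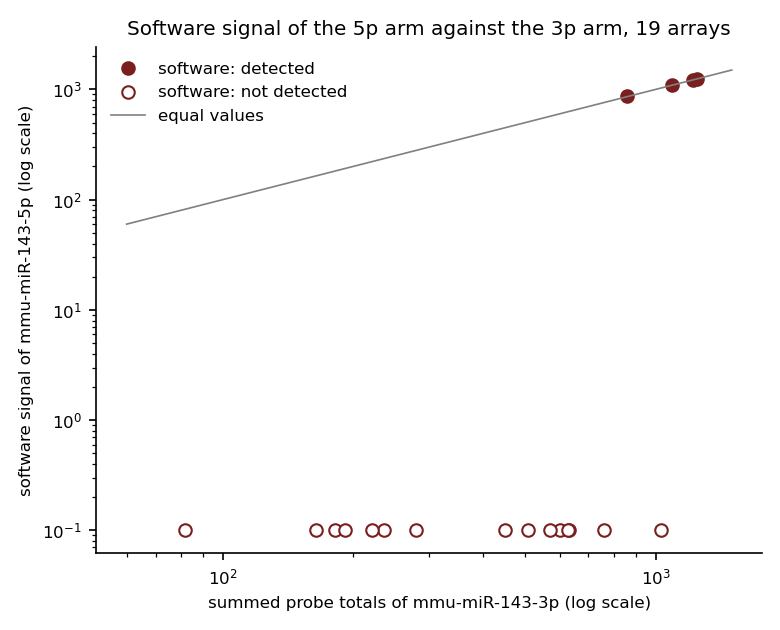
Software signal of miR-143-5p (vertical axis) against the summed probe totals of miR-143-3p (horizontal axis), in intensity units on 2 log axes, 1 point per array, where filled points were called detected and undetected ones are drawn at the value 0.1 of the files; the line marks equal values. The 4 filled points (867 to 1256) lie on the line.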

How the data were processed

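The authors hybridised Cy3-labelled total RNA to 1-colour Agilent mouse miRNA arrays and deposited the scanner's Feature Extraction 10.7.1.1 files, whose background-subtracted processed intensity per spot was read here. The authors also deposited a series table of log2 values, found to be centred on each row's median within a tissue (600, 1157 and 600 rows, tolerance 1e-04). Its scale and any other centring stay unknown, its column medians run from -0.40 to 0.75, and it served as an alternative. The study's methods also name arrays removed for poor signal, which were not analysed here.

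Spots of a probe were averaged without control spots and outlier flags. Detection asked for over 50% of a probe's spots well above background. Arrays were scaled to the 75th percentile over probes detected on every array of a comparison (456, 417 and 594 probes within soleus, EDL and nucleus accumbens), floored at the median of the arrays' lowest detected signals (25.2, 19.6 and 25.0 within the tissues), and put on the log2 scale. A miRNA was read from its brightest probe and tested if detected on at least 2 arrays (3 in nucleus accumbens). The number of arrays limits the precision.

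Tests used limma 3.58.1 in R 4.3.3 (files read with the data.table package, version 1.17.8), with Benjamini-Hochberg adjustment over all miRNAs tested and a threshold of 0.05. Strains were compared within each tissue, and tissues and interactions in 1 fit of 6 group means over 19 arrays, where a tissue difference is the mean of its within-strain differences. The scripts were tested on simulated data. Mouse numbers in the titles mark the same animal in several tissues: 15 same-mouse pairs of arrays from different tissues had a median correlation of deviations of 0.11 (-0.67 to 0.54), against 0.0076 for 105 pairs of different mice. The mouse as a block, other scalings, quantile normalization, normexp (offset 50, on the median spot signal because the files hold no mean signal), probe means, the software's signal per miRNA, floors, filters, slide, settings near the study's methods and leaving out each array were alternatives. An alternative without slide 3, and one joining mouse and slide as blocks, were added after the slide values of miR-126-5p were seen.

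The named miRNAs are the 6 members, the 5 nearest in pattern to each of 3 members, and from each vascular list the 4 with the largest tissue changes (for soleus against EDL all 6 that passed were named, the last 2 after their values were seen) and the 3 brightest. The members, lists and rule were chosen with earlier results of these data known. Sequences and gene positions are from RefSeq (GRCm38.p6), where all 6 members' genes were found.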

Additional observations from a re-analysis of the deposited data

Results flagged for a closer look

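In groups of 4 mice the array farthest from the rest was compared with the group's whole range, in 24 groups in all. 2 groups passed Dixon's 95% critical value for that ratio, where chance alone passes about 1 in 20. miR-145a-5p in low-active EDL gave a ratio of 0.949, with mouse 195 at 8.43 and the other 3 mice at 9.31 to 9.35. That array of mouse 195 also had the lowest 75th percentile before scaling (658) and the fewest miRNAs detected (242) of the series. miR-143-3p minus miR-145a-5p in low-active EDL gave 0.861, with mouse 196 at 0.79 and the others at 1.18 to 1.24. The scanner software's signal per miRNA was used above only as an alternative setting. It called miR-143-5p detected on 4 arrays and miR-145a-3p on 2, each time with another miRNA's total in the value.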

How the results depend on the processing

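The calls of muscle over nucleus accumbens held for miR-126-3p, miR-143-3p and miR-145a-5p in all settings run, and for miR-126-5p in soleus. In soleus minus nucleus accumbens the differences ranged over 1.80 to 2.46 for miR-126-3p, 1.18 to 2.13 for miR-126-5p, 1.90 to 2.85 for miR-143-3p and 1.52 to 2.78 for miR-145a-5p, and in EDL minus nucleus accumbens over 1.14 to 2.17 for miR-126-3p, 1.83 to 2.86 for miR-143-3p and 1.76 to 2.97 for miR-145a-5p. The EDL call of miR-126-5p was lost at 0.79 with no scaling and 0.77 with spike-in scaling. The higher miR-126-3p in soleus than in EDL was lost at 0.29 with the percentile over all probes (adjusted p = 0.225 by limma), 0.63 with no scaling (0.142), 0.33 with the software signal (0.118), 0.73 with spike-in scaling (0.122), 0.30 within high-active mice (0.174) and 0.34 without slide 3 (0.0663), which left 0 members called in each. With a random mouse replicate block it was 0.40 (adjusted p = 0.0031) and with a fixed one 0.42 (adjusted p = 0.021). The mouse block changed no other call. With slide as a block, alone or with the mouse as a random replicate block, miR-126-5p was also called, at 0.52 in both, which made 2 members. The cause of these changes was not tested.

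Small soleus minus EDL differences turned sign. For miR-143-3p it was -0.10 with the percentile over all probes, -0.00049 with the mean of probes, -0.057 with the software signal and -0.27 within high-active mice, and -0.19 to 0.076 when arrays were left out in turn. For miR-145a-5p it was 0.083 with spike-in scaling.

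Strain differences in soleus moved with no scaling to -0.60 for miR-126-3p, -0.21 for miR-126-5p, -0.90 for miR-143-3p (the 1 member called) and -0.43 for miR-145a-5p. miR-126-3p was -0.047 with quantile normalization and -0.036 with the software signal in soleus, and -0.00031 in the series table in nucleus accumbens. miR-143-3p was 0.067 with the percentile over all probes and 0.12 with settings near the methods in soleus, and -0.049 with the slide block in nucleus accumbens. miR-145a-5p in nucleus accumbens was 0.19 with the percentile over all probes, 0.36 with no scaling, 0.081 with quantile normalization, 0.025 with the software signal, 0.13 with settings near the methods and 0.14 without slide 3. Within slide 1 (2 arrays a tissue) miR-126-3p and miR-145a-5p differed by 0.29 and 0.71 in soleus, and miR-126-3p, miR-143-3p and miR-145a-5p by 0.38, 0.63 and 0.71 in EDL. Within slide 2 miR-126-5p, miR-143-3p and miR-145a-5p differed by 0.15, -0.42 and -0.073 in soleus and miR-126-5p by 0.0020 in nucleus accumbens. Within slide 3 miR-126-3p differed by 0.16 in EDL, and miR-143-3p and miR-145a-5p by -0.34 and -0.52 in nucleus accumbens. Leaving out arrays gave -0.40 to 0.032 for miR-143-3p in soleus, -0.10 to 0.93, -0.031 to 0.44 and -0.060 to 0.51 for miR-126-5p, miR-143-3p and miR-145a-5p in EDL, and -0.11 to 0.38 and -0.19 to 0.23 for miR-143-3p and miR-145a-5p in nucleus accumbens.

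No interaction was called in any setting, but signs turned. For miR-126-5p, soleus against EDL gave 0.11 with the percentile over all probes, 0.0030 with quantile normalization, 0.059 with normexp, 0.029 with probe means, 0.12 with the software signal and 0.17 without slide 3. Soleus against nucleus accumbens gave 0.018 with the percentile over all probes, 0.11 with normexp, 0.039 with probe means, 0.16 with the software signal, 0.11 with the slide block alone or with the mouse, and 0.33 without slide 3. EDL against nucleus accumbens gave 0.051 with normexp, 0.0099 with probe means, 0.047 with the software signal, 0.17 with the slide block alone or with the mouse and 0.16 without slide 3. For miR-126-3p, soleus against nucleus accumbens gave -1.04 with no scaling, -0.095 with quantile normalization, -0.029 with normexp and -0.95 with spike-in scaling, and EDL against nucleus accumbens -0.15 with no scaling and -0.052 with spike-in scaling. For miR-143-3p, EDL against nucleus accumbens gave -0.15 and -0.050 in those 2 settings. For miR-145a-5p, soleus against nucleus accumbens gave -0.79 and -0.70 in them, and soleus against EDL 0.013 with the percentile over all probes and 0.15 without slide 3. Leaving out arrays gave, soleus against EDL, -0.51 to 0.48 for miR-126-5p and -0.31 to 0.21 for miR-145a-5p, soleus against nucleus accumbens, -0.28 to 0.16 for miR-126-5p and -0.037 to 0.22 for miR-126-3p, and, EDL against nucleus accumbens, -0.52 to 0.47 for miR-126-5p and -0.042 to 0.56 for miR-143-3p.

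Over all miRNAs, strain calls ran from 0 to 52 in soleus (4 in the report), 0 to 10 in EDL (1) and 0 to 57 in nucleus accumbens (27). Tissue calls ran from 31 to 128 for soleus against EDL (78), 152 to 396 for soleus against nucleus accumbens (382) and 149 to 382 for EDL against nucleus accumbens (367), and interaction calls from 0 to 9 (3), 0 to 76 (37) and 0 to 39 (27) for the same pairs.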
